A study of Mus musculus with 4 samples.

Results

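The genes described here are 8 transcription factor genes, grouped as enterocyte and regional lineage factors of the intestine. They are the caudal homeobox genes Cdx1 and Cdx2, the zinc finger genes Gata4, Gata5 and Gata6, and the intestine-specific homeobox gene Isx. The membrane-tethered basic leucine zipper gene Creb3l3 and the Krüppel-like factor gene Klf5 complete the group. Whether each sets intestinal identity in these cultures was not tested. The 8 genes were chosen by gene name, with earlier results of these data known. All 8 names were found among the 51508 genes of the deposited table. The samples were intestinal organoids, which are epithelial cultures that form crypt-like and villus-like domains, from wild type C57BL/6 mice of 8 to 12 weeks. SGC-CBP30, an inhibitor of the bromodomains of the acetyltransferases CBP and p300, was given to 2 cultures and vehicle to 2, and RNA was taken 36 hours after a dose of 8 Gy of radiation that both groups received. No unirradiated group was analysed here, so the values describe irradiated organoids only. The labels do not say which part of the intestine the cultures came from, nor whether replicates were separate animals or cultures, so p-values measure only the spread between these libraries, which may be technical. The treatment label of SGC-CBP30 replicate 2 reads SGC-CBP31, while its title places it with replicate 1, and results are therefore also given without it where they change.

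CDX1 and CDX2 are homeodomain proteins made along the whole intestine and not in the stomach, and CDX2 opens and maintains the enhancers of intestinal genes. GATA4 and GATA6 bind GATA sites in many of the same enhancers, with GATA4 strongest in the proximal small intestine, where in mice it keeps jejunal genes on and ileal genes off, and with GATA6 present from duodenum to colon. ISX lies below CDX2 and the retinoic acid receptors and represses vitamin A uptake genes, CREB3L3 is released from the endoplasmic reticulum by proteolysis to drive lipid and gluconeogenic genes, and KLF5 is a crypt factor needed for proliferation of intestinal progenitors.

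The 4 libraries held 16433117 to 18087250 counts and 20980 to 21933 detected genes, and 14684 genes passed the filter on low counts. Mitochondrially encoded genes took 5.25% and 5.99% of counts in SGC-CBP30 libraries and 6.55% and 6.73% in vehicle libraries. The epithelial label was met by the data. The 8 epithelial markers (Epcam, Cdh1, Vil1, Krt8, Krt18, Krt19, Cdh17 and Cldn7) summed to 10580 and 9913 CPM (counts relative to library size, scaled between libraries by TMM) in SGC-CBP30 libraries and to 8703 and 8726 CPM in vehicle libraries. Markers of fibroblasts summed to 11.0 to 17.8 CPM per library, most of it Vim, and those of smooth muscle, immune cells, endothelium, and neurons and glia to at most 4.30 CPM per library. The fibroblast marker Lum and the neuronal marker Elavl4 were at 0 in all 4 libraries.

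With SGC-CBP30, 6 of the 8 factors fell and none rose, against 16.3% of all tested genes that were lower, 13.6% that were higher and 30.0% that changed in either direction (quasi-likelihood F test of edgeR; a call is a Benjamini-Hochberg adjusted p below 0.05, corrected over all 14684 genes). Gata5 fell most, by 1.03 on the log2 scale. Cdx1, Gata6 and Isx formed a middle group with log2 fold changes from -0.46 to -0.45, and Klf5 and Cdx2 had the smallest called changes at -0.23 and -0.21. Gata4 and Creb3l3 did not pass. In 7 of the 8, all but Gata4, the values of the groups did not overlap, beside 63.1% of all tested genes. Among these Creb3l3 was higher with SGC-CBP30, as were 32.1% of all tested genes, and the others were lower, as were 31.0%. The median log2 fold change of the 8 was -0.34, beside 0.0096 over all tested genes. As the genes were chosen with earlier results of these data known, these shares and medians are a description and not a test. The Cdx2 and Klf5 calls were the less secure ones. Without SGC-CBP30 replicate 2, the library labelled SGC-CBP31, the log2 fold change was -0.11 for Cdx2 and 0.19 for Creb3l3. Under scaling by library totals alone, 5 factors were lower and Creb3l3 was higher, DESeq2 called 5, and leaving out either vehicle replicate left 4, namely Gata5, Cdx1, Gata6 and Isx. The data come from whole organoids, so fewer cells of a type and less RNA per cell cannot be told apart.

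**Figure D1:**
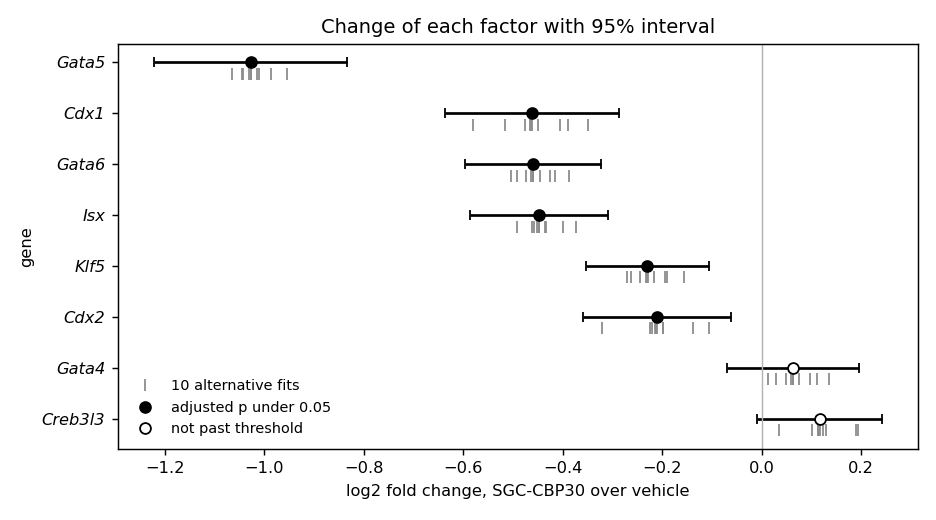
Change with SGC-CBP30 relative to vehicle, as log2 fold change (x axis), for each of the 8 genes (rows), as points with 95% intervals from the edgeR fit. Filled points have an adjusted p under 0.05, open points do not, and grey ticks show the 10 alternative fits. Gata5 stands at -1.03, whereas the intervals of Gata4 and Creb3l3 include 0.

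The 8 genes differed widely in level. Per length, in CPM per kilobase of gene length, Creb3l3 was highest in every library, at 187 and 168 with SGC-CBP30 and 165 and 163 with vehicle. Isx came next in every library, at 63.4 and 64.4 with SGC-CBP30 against 84.5 and 89.8 with vehicle. Cdx2 and Klf5 stood close together: Cdx2 averaged 58.4 ± 6.15 with SGC-CBP30 and 67.6 ± 0.850 with vehicle, and Klf5 averaged 55.8 ± 2.19 with SGC-CBP30 and 65.4 ± 2.05 with vehicle (SD, n = 2). With SGC-CBP30 these neighbours in the order differed by less than the SD of Cdx2, whereas with vehicle Cdx2 was above Klf5 in both libraries, by little in replicate 2. They changed places in SGC-CBP30 replicate 2. Isx stood clear of Cdx2 in vehicle libraries, whereas in SGC-CBP30 replicate 1 the levels were 63.4 for Isx and 62.8 for Cdx2. Gata4 followed in every library, and below it came Cdx1, Gata6 and Gata5. The level of Gata5 was 8.15 ± 0.130 with SGC-CBP30 and 16.6 ± 0.672 with vehicle. All 8 were among the better expressed genes, from the 67.6th percentile of mean CPM for Gata5 to the 98.5th for Creb3l3.

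**Figure D2:**
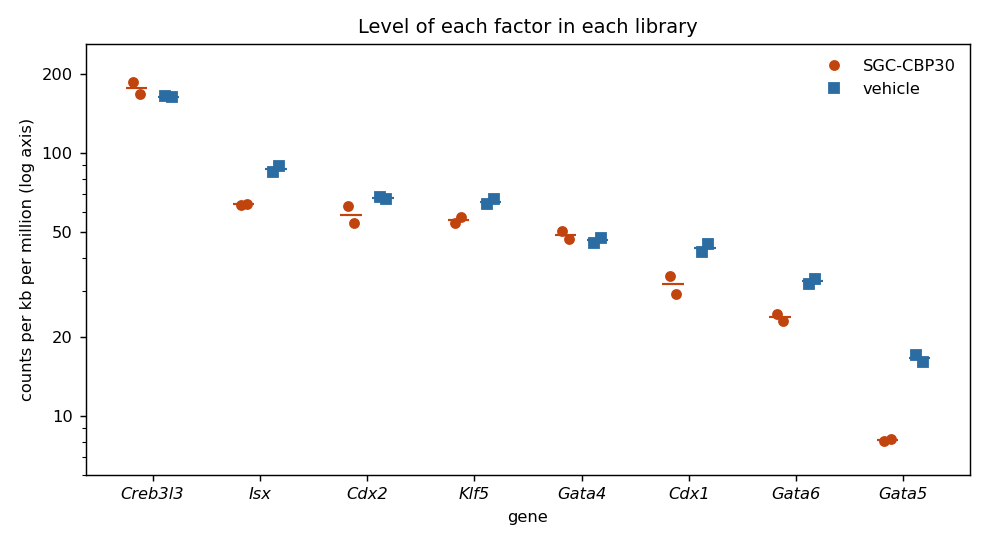
Level of each gene in CPM per kilobase (y axis, log scale) in each library, with SGC-CBP30 as circles and vehicle as squares, ordered by the vehicle mean. Short lines are group means of 2 libraries. The groups overlap for Gata4 and for no other gene shown, beside 63.1% of all tested genes without overlap. Creb3l3 alone of the separated genes is higher with SGC-CBP30.

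Among the homeobox genes, Cdx1 fell more than Cdx2. Cdx1 (ENSMUSG00000024619, chromosome 18, 61018862 to 61036199, minus strand, GRCm38) had 60.0 and 51.1 CPM in SGC-CBP30 libraries, against 73.7 and 79.3 CPM in vehicle libraries. Both SGC-CBP30 values lay below both vehicle values, as they did for 31.0% of all tested genes. Its log2 fold change was -0.46 ± 0.08 (SE; edgeR adjusted p = 1.61e-04), and it stayed called in all 10 alternative fits, with values from -0.58 to -0.35. Cdx2 (ENSMUSG00000029646, chromosome 5, 147300805 to 147307270, minus strand) had 142 and 122 CPM in SGC-CBP30 libraries and 154 and 151 CPM in vehicle libraries. The groups did not overlap, but the SGC-CBP30 libraries lay further from each other than replicate 1 lay from the vehicle libraries. The log2 fold change of Cdx2 was -0.21 ± 0.07 (edgeR adjusted p = 0.0295). That call was lost without SGC-CBP30 replicate 2 (log2 fold change -0.11, edgeR adjusted p = 0.195), without vehicle replicate 1 or 2 (adjusted p = 0.209 and 0.155), in DESeq2 (adjusted p = 0.0959) and under scaling by library totals alone (-0.14, edgeR adjusted p = 0.147). In the authors' deposited table Cdx2 has a log2 fold change of -0.21 and an adjusted p of 0.0941, and Cdx1 one of 0.000943. Per length, the ratio of Cdx1 to Cdx2 was 0.546 and 0.540 in SGC-CBP30 libraries, against 0.617 and 0.676 in vehicle libraries. The ratio was lower in both SGC-CBP30 libraries, and this difference between the genes was not tested further. Cdx4, the last gene of the family, had 0 counts in all 4 libraries, where 3 counts would be 0.166 to 0.183 CPM.

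Isx (ENSMUSG00000031621, chromosome 8, 74873173 to 74893506, plus strand) had 114 and 115 CPM with SGC-CBP30, against 152 and 161 CPM with vehicle. Replicates lay close together in both groups and the groups were well apart. Its log2 fold change was -0.45 ± 0.07 (SE; edgeR adjusted p = 1.21e-05), with -0.49 to -0.37 and a call in all 10 alternatives. The authors' deposited table gives Isx -0.45 with an adjusted p of 2.08e-06.

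The GATA genes ranged from no call to the largest fall among the 8 factors. Of the 6 GATA genes of the mouse only Gata4, Gata5 and Gata6 passed the filter, since the blood cell genes Gata1 and Gata2 had 0 counts in every library and Gata3 had 1 count in SGC-CBP30 replicate 1 and 1 in vehicle replicate 1. Gata5 (ENSMUSG00000015627, chromosome 2, 180325133 to 180334699, minus strand) had 449 and 474 counts in SGC-CBP30 libraries and 988 and 843 counts in vehicle libraries, which is 26.4 and 27.0 CPM with SGC-CBP30 against 56.0 and 52.8 CPM with vehicle. It was 2.04-fold lower, with a log2 fold change of -1.03 ± 0.09 (SE; edgeR adjusted p = 4.32e-09) and a range of -1.06 to -0.95 over the alternatives, all called. Its change was larger than that of 92.4% of tested genes in either direction. Gata6 (ENSMUSG00000005836, chromosome 18, 11052508 to 11085635, plus strand) had 137 and 129 CPM with SGC-CBP30, against 179 and 187 CPM with vehicle. These groups also did not overlap. The log2 fold change of Gata6 was -0.46 ± 0.07 (edgeR adjusted p = 6.61e-06), and its call held in all 10 alternatives. Gata4 (ENSMUSG00000021944, chromosome 14, 63198922 to 63271692, minus strand) had 197 and 184 CPM with SGC-CBP30 and 178 and 186 CPM with vehicle, groups that overlap. Its log2 fold change was 0.06 ± 0.06 with a 95% interval of -0.07 to 0.20 (edgeR adjusted p = 0.517). No alternative called Gata4, and that interval lies above the upper bounds of Gata6 (-0.32) and Gata5 (-0.83), though the difference between the genes was not itself tested.

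The makeup of the GATA transcripts therefore differed between the groups. Per length, Gata4 was 60.8% and 60.1% of the sum of the 3 genes in SGC-CBP30 libraries, against 48.2% and 49.1% in vehicle libraries. Gata5 was 9.70% and 10.5% of it with SGC-CBP30, against 18.0% and 16.6% with vehicle, and Gata6 29.5% and 29.4% with SGC-CBP30 against 33.8% and 34.3% with vehicle. These are shares of one total, so that they move together, and they are ratios within a library that no scaling between libraries can change. The sum itself was 83.0 and 78.4 CPM per kilobase with SGC-CBP30 and 94.7 and 97.3 with vehicle. Zfpm1, which encodes the GATA cofactor FOG1, had 132 and 126 CPM with SGC-CBP30 and 142 and 141 CPM with vehicle and did not pass (log2 fold change -0.13 ± 0.07, edgeR adjusted p = 0.146), except without SGC-CBP30 replicate 1 (-0.16, edgeR adjusted p = 0.0388). The other cofactor gene, Zfpm2, had 0 counts throughout.

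**Figure D3:**
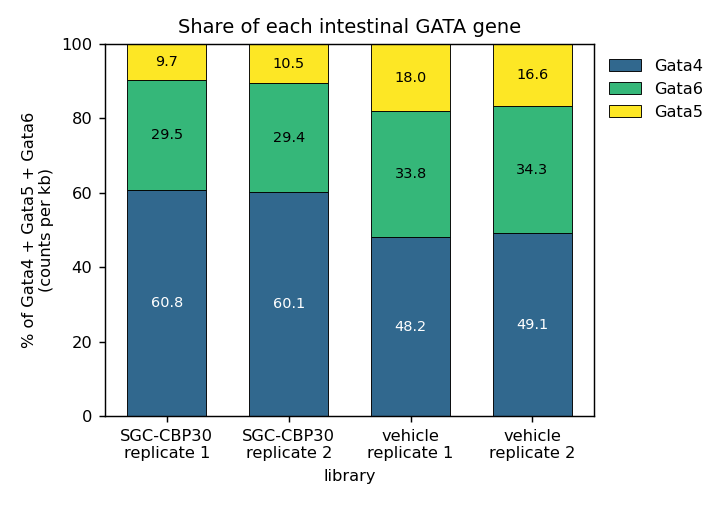
Share of Gata4, Gata6 and Gata5 (y axis, percent of their summed counts per kilobase) in each library (x axis). Gata4 makes up 60.8% and 60.1% in SGC-CBP30 libraries and 48.2% and 49.1% in vehicle libraries.

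Both lowered GATA genes have an annotated transcript on the opposite strand, and in both cases its counts were lower too. 1010001N08Rik, a noncoding gene that overlaps Gata6, had 231 and 273 counts with SGC-CBP30, against 496 and 415 with vehicle, a log2 fold change of -0.89 ± 0.12 (SE; edgeR adjusted p = 4.22e-06). Gata5os, an antisense gene overlapping Gata5, had 11 and 22 counts with SGC-CBP30, against 34 and 39 with vehicle, a log2 fold change of -1.19 ± 0.44 (edgeR adjusted p = 0.0423). The Gata5os call was lost without SGC-CBP30 replicate 1 (-0.79, edgeR adjusted p = 0.255), without vehicle replicate 1 or 2 (adjusted p = 0.0572 and 0.230), in DESeq2 (adjusted p = 0.212) and with library totals (adjusted p = 0.0539). Whether counting used strand is not given in the sources used here, so reads of each factor and its opposite-strand partner cannot be told apart. Both partners had far fewer counts than the factor they overlap. No other gene of the deposited table overlapped any of the 8 factors.

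Klf5 (ENSMUSG00000005148, chromosome 14, 99298691 to 99315036, plus strand) had 282 and 298 CPM with SGC-CBP30, against 333 and 348 CPM with vehicle. The groups did not overlap, and the log2 fold change was -0.23 ± 0.06 (SE; edgeR adjusted p = 0.00497; -0.23 and 0.00666 in the authors' deposited table). The call was lost without vehicle replicate 1 (-0.26, edgeR adjusted p = 0.0572) and without vehicle replicate 2 (-0.19, edgeR adjusted p = 0.196). Of the other 11 tested KLF genes 3 were higher, 3 lower and 5 not called, beside 13.6% higher and 16.3% lower over all tested genes, and only 1 was higher in DESeq2 or without vehicle replicate 1. Those of smallest p were Klf7, at 13.0 and 13.9 CPM with SGC-CBP30 against 21.9 and 22.8 CPM with vehicle (-0.73 ± 0.13), Klf15, a factor of fasting metabolism (-2.02 ± 0.36), and Klf10, a TGF-beta inducible gene (0.57 ± 0.10). Klf15 was low in level, at 0.882 and 0.968 CPM with SGC-CBP30 against 3.57 and 4.01 CPM with vehicle.

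Creb3l3 (ENSMUSG00000035041, chromosome 10, 81084324 to 81098874, minus strand) had 565 and 506 CPM with SGC-CBP30 and 496 and 491 CPM with vehicle. Both SGC-CBP30 values were higher, as for 32.1% of all tested genes, but replicate 2 exceeded the vehicle libraries by less than it differed from replicate 1. The log2 fold change was 0.12 ± 0.06 (SE) with a 95% interval of -0.01 to 0.24 (edgeR adjusted p = 0.161). It was called higher when SGC-CBP30 replicate 2 was left out (0.19, edgeR adjusted p = 6.71e-05) and with library totals (0.19, edgeR adjusted p = 0.0156), and was 0.03 without SGC-CBP30 replicate 1. Of its relatives Creb3l2 fell, at 83.5 and 96.5 CPM with SGC-CBP30 against 131 and 122 CPM with vehicle (-0.49 ± 0.08, edgeR adjusted p = 1.89e-05). Creb3 and Atf6b rose, by 0.27 ± 0.08 and 0.26 ± 0.09 on the log2 scale. Both of these calls were lost in DESeq2 and without either vehicle replicate (adjusted p from 0.0810 to 0.194), and that of Atf6b also without SGC-CBP30 replicate 1 (edgeR adjusted p = 0.0828). Creb3l1 (-0.30 ± 0.16), Creb3l4 (-0.40 ± 0.24) and Atf6 (-0.13 ± 0.08) did not pass, though Atf6 did without SGC-CBP30 replicate 2 (-0.24, edgeR adjusted p = 0.00505). The genes of the proteases that cleave CREB3L3 free from the membrane, Mbtps1 and Mbtps2, did not pass, at -0.03 ± 0.07 and -0.0017 ± 0.11, values whose sign differed between alternatives.

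Start site sequences were at hand for Gata5, Isx, Cdx2 and Creb3l3, and none is shown for Cdx1, Gata6, Gata4 or Klf5. Those at hand are shown because Gata5, Isx and Cdx2 fell, Cdx2 with a less secure call, whereas Creb3l3 did not pass. They set side by side what lies at the gene starts. Each runs 5′ to 3′ on the gene's strand from 250 bases before to 50 after a RefSeq start (GRCm38.p6). Capitals mark matches on either strand to the letters AGATAA for GATA factors, TTTATG for CDX, CCACCC for KLF, CAAAGTCCA for HNF4 and TGACGTCA for the cyclic AMP response element.
Gata5, chr2:180334630-180334929, minus strand: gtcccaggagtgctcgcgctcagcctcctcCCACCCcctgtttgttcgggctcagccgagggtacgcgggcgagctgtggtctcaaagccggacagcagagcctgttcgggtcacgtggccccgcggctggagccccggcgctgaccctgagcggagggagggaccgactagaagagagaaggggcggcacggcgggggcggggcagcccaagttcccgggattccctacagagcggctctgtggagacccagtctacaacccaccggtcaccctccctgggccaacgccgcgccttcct
Isx, chr8:74872924-74873223, plus strand: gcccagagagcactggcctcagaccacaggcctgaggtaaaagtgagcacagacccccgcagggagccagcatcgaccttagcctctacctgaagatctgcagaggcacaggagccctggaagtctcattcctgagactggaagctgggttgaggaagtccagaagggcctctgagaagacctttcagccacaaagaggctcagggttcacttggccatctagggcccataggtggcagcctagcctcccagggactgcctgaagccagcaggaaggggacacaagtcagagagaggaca
Cdx2, chr5:147307200-147307499, minus strand: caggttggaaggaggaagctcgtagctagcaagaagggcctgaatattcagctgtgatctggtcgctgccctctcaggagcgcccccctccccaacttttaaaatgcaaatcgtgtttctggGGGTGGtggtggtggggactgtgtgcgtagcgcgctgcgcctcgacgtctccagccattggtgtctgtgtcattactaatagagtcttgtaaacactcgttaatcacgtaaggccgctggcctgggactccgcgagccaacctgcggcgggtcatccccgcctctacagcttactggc
Creb3l3, chr10:81098823-81099122, minus strand, the outer start: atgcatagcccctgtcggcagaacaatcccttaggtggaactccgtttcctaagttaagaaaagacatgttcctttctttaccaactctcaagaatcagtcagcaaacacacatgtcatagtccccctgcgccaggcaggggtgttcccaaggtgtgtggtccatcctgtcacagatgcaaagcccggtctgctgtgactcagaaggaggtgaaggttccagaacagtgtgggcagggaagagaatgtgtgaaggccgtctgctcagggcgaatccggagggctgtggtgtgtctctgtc
Creb3l3, chr10:81092542-81092841, minus strand, an internal start: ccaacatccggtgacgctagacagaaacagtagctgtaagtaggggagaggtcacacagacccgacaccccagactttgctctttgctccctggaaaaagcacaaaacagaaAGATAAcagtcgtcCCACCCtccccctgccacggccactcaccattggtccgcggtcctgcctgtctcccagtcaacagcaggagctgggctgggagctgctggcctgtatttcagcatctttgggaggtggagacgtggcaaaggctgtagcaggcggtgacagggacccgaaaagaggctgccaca
The Gata5 and Cdx2 windows each held 1 CCACCC match, at 220 and 128 bases before the start, and no other match. The Isx window and the window at the outer Creb3l3 start held none. The internal Creb3l3 window held 1 AGATAA at 138 bases and 1 CCACCC at 124 bases before the start. Over 32851 RefSeq start windows of 300 bases, 31.5% held CCACCC, 11.2% AGATAA, 11.9% TTTATG, 1.79% TGACGTCA and 0.475% CAAAGTCCA on either strand, none overlapping another in these 5 windows. The share of G and C was 69.7% for Gata5, 58.7% for Isx, 57.3% for Cdx2, and 53.0% and 57.7% for the outer and internal Creb3l3 windows, beside a median of 52.7% over all windows. A match is a match of letters and no measure of binding.

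The factors were also set against other transcription factor genes. Of 879 tested genes that the deposited table assigns to a transcription factor family, 120 rose and 93 fell, with a median log2 fold change of 0.04. This grouping was taken up after the values were seen. Calls made up 24.2% of the 879, beside 30.0% of all tested genes, whose median was 0.0096. Ranked from the lowest log2 fold change among these 879, Gata5 was at place 17, Cdx1 at 72, Gata6 at 73, Isx at 76, Klf5 at 170, Cdx2 at 186, Gata4 at 464 and Creb3l3 at 523. The table's GATA finger family held 9 tested genes, of which 55.6% were called, beside 30.0% of all tested genes. That share counts Gata4, Gata5 and Gata6 themselves. Without them 6 genes were left, of which 3 were higher and 0 lower, beside 13.6% and 16.3% of all tested genes. Besides Gata5 and Gata6, which fell, the chromatin repressor genes Rere (0.22 ± 0.06), Gatad2b (0.24 ± 0.09) and Gatad1 (0.38 ± 0.09) rose, named after their values were seen. The Rere call was lost without vehicle replicate 1 or 2 (edgeR adjusted p = 0.175 and 0.128), and that of Gatad2b without either vehicle replicate (adjusted p = 0.375 and 0.0744), in DESeq2 (0.196), when SGC-CBP30 replicate 2 was left out (0.198) and under a stricter filter (0.0535, at least 50 counts in 2 libraries).

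**Figure D4:**
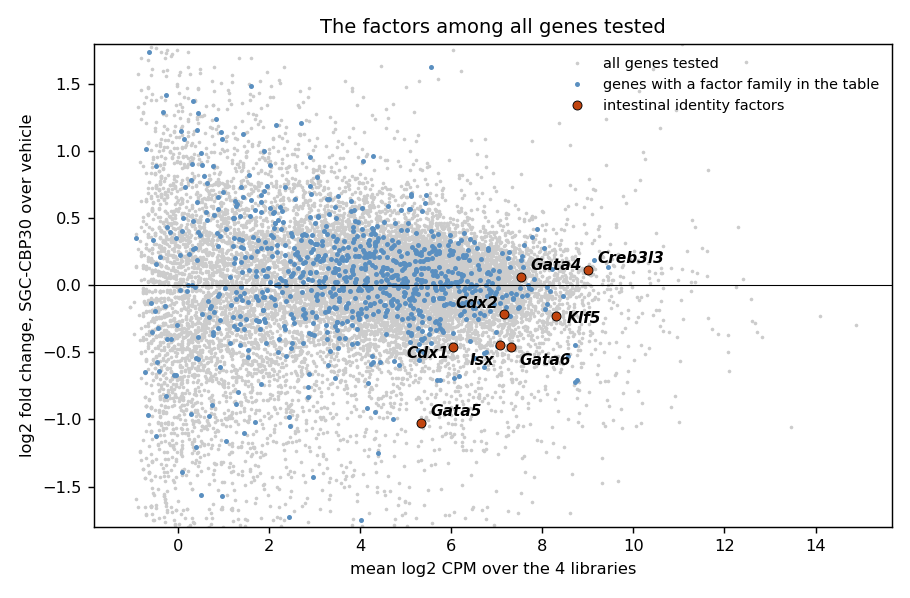
Change with SGC-CBP30 relative to vehicle, as log2 fold change (y axis), against mean log2 CPM over the 4 libraries (x axis) for all tested genes (grey), genes with a transcription factor family in the table (blue) and the 8 factors (named). Gata5 lies at -1.03, Cdx1, Gata6 and Isx lie near -0.45, and 287 genes lie outside the y axis limits.

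Of 30 other epithelial transcription factor genes 9 were lower, 5 higher and 16 not called, beside 16.3% lower and 13.6% higher over all tested genes, with a median of -0.06 that was 0.01 with library totals. The number that rose was 0 without vehicle replicate 1, 3 without vehicle replicate 2 and 1 in DESeq2. Hnf4g, which encodes a nuclear receptor of enterocyte enhancers, had 305 and 336 CPM with SGC-CBP30, against 527 and 528 CPM with vehicle (-0.72 ± 0.06, SE; edgeR adjusted p = 9.91e-10). Its paralogue Hnf4a, named after its values were seen, had 742 and 713 CPM with SGC-CBP30 against 650 and 672 CPM with vehicle and did not pass (0.14 ± 0.06, edgeR adjusted p = 0.0708), though it was higher with library totals (0.21, edgeR adjusted p = 0.00432) and without SGC-CBP30 replicate 1 (0.11, edgeR adjusted p = 0.0307) or 2 (0.17, edgeR adjusted p = 3.85e-04). The ETS factor gene Ehf fell by 0.68 ± 0.08 and Maf, a factor of villus enterocytes, by 0.71 ± 0.08 on the log2 scale. Vdr, the vitamin D receptor gene and also named after its values were seen, had 358 CPM in each SGC-CBP30 library, against 479 and 498 CPM in vehicle libraries (-0.45 ± 0.06).

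Genes that have been reported as CDX targets were mostly lower. Of 11 tested besides Isx, 6 were lower, 2 higher and 3 not called, beside 30.0% changed over all genes, and their median was -0.37 against 0.0096. The number that fell was 6 in every alternative, while the number that rose was 4 with library totals and without SGC-CBP30 replicate 2 and 1 without either vehicle replicate. The lactase gene Lct had 316 and 291 CPM with SGC-CBP30, against 619 and 639 CPM with vehicle. The sucrase-isomaltase gene Sis had 6787 and 7781 CPM with SGC-CBP30 against 15129 and 15101 CPM with vehicle, and the peptide transporter gene Slc15a1 162 and 164 CPM with SGC-CBP30 against 289 and 292 CPM with vehicle. All 3 stood apart between groups, with log2 fold changes of -1.05 ± 0.06, -1.05 ± 0.06 and -0.84 ± 0.06 (SE). Lct and Sis are also among the enterocyte markers below, and Lct among the jejunal genes, so these lists are not separate observations. Gastric genes are a list of interest beside CDX2, because stomach genes appear in the intestine of mice that lack it. Of 16 gastric genes 8 passed the filter, of which Anxa10 rose (0.65 ± 0.08), Gkn3 fell (-2.37 ± 0.51, at 0.235 and 0.627 CPM with SGC-CBP30 against 2.15 and 2.38 CPM with vehicle) and 6 did not pass. The stricter filter leaves Gkn3 untested. The stomach factor genes Sox2 and Barx1, named after their values were seen, had 0 counts in all libraries.

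Lists of genes that mark regions of the intestine, on which GATA4 bears, are given beside the 16.3% of all tested genes that were lower and the 13.6% that were higher. Of 10 jejunal genes reported to need GATA4 in mice, 4 fell and 3 rose, with a median of -0.14 that was -0.0069 without SGC-CBP30 replicate 2 and -0.09 without replicate 1. The fatty acid receptor gene Cd36 fell, at 15.0 and 14.3 CPM with SGC-CBP30 against 49.2 and 62.0 CPM with vehicle (-1.92 ± 0.12, SE), as did Lct, whereas the sterol exporter gene Abcg5 rose, at 647 and 677 CPM with SGC-CBP30 against 380 and 385 CPM with vehicle (0.79 ± 0.06). Of 6 tested ileal genes 5 fell, or 4 in DESeq2. The 5 included the bile acid transporter genes Slc51a (-1.16 ± 0.07) and Slc10a2 (-1.19 ± 0.25) and the cobalamin receptor gene Cubn (-2.65 ± 0.20). The other gene, Amn, which the rule for named genes leaves out, rose by 0.21 ± 0.08 on the log2 scale (edgeR adjusted p = 0.0498), a call lost in 7 of the 10 alternatives. The classical ileal gene Fabp6, also outside the rule for named genes, had at most 3 counts in any library. Of 6 tested duodenal genes 4 fell, those of smallest p being the iron transporter genes Slc11a2 (-1.03 ± 0.06) and Slc40a1 (-0.94 ± 0.10) and the carbonic anhydrase gene Car9 (-0.60 ± 0.06). Of 6 tested colonic genes 3 fell and 1 rose, with the water channel gene Aqp8 (-5.37 ± 0.14) and the chloride exchanger gene Slc26a3 (-0.88 ± 0.07) lower and Slc37a2 (1.54 ± 0.09) higher. Under the stricter filter 2 colonic genes were lower.

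Retinoid genes and reported targets of CREB3L3 and KLF5 were set beside the same shares over all genes, 16.3% lower and 13.6% higher. The retinoid list holds genes that ISX represses together with retinoid enzymes, carriers and receptors, and is not a list of ISX targets. Of the genes ISX is known to repress in mice, named after their values were seen, Bco1, the carotene-cleaving enzyme gene, had 30.6 and 23.9 CPM with SGC-CBP30, against 16.7 and 22.3 CPM with vehicle (0.49 ± 0.14, SE; edgeR adjusted p = 0.0113). That call was lost without SGC-CBP30 replicate 1 (0.30, edgeR adjusted p = 0.107), without vehicle replicate 1 (0.29, edgeR adjusted p = 0.183) and in DESeq2 (adjusted p = 0.0674). Scarb1, the gene of the lipid and carotenoid receptor SR-BI, had 39.7 and 33.9 CPM with SGC-CBP30 against 37.2 and 37.4 CPM with vehicle (-0.02 ± 0.10), with a sign that was positive with library totals and without SGC-CBP30 replicate 2. Over 10 tested retinoid genes 5 fell and 1 rose, and 0 rose without SGC-CBP30 replicate 1, without vehicle replicate 1 or in DESeq2. The retinol and retinal enzyme genes Rdh7 (-3.32 ± 0.08), Aldh1a1 (-0.88 ± 0.06) and Dhrs3 (-0.98 ± 0.09) fell. Of 8 tested CREB3L3 target genes 3 fell and 1 rose, with 2 higher with library totals, and 2 lower with library totals, with no filter and in DESeq2. The gluconeogenic genes G6pc, at 101 and 96.8 CPM with SGC-CBP30 against 184 and 177 CPM with vehicle (-0.87 ± 0.07), and Pck1, at 3.12 and 3.47 CPM with SGC-CBP30 against 16.8 and 16.7 CPM with vehicle (-2.34 ± 0.18), were lower, and the apolipoprotein gene Apoa4 was higher at 6193 and 5326 CPM with SGC-CBP30 against 4158 and 4376 CPM with vehicle (0.43 ± 0.06). Of 7 KLF5 target genes 4 fell and 2 rose: the cyclin gene Ccnb1 was lower (-0.51 ± 0.10), and the growth factor gene Pdgfa (0.50 ± 0.08) and the receptor gene Egfr (0.44 ± 0.08), were higher.

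**Figure D5:**
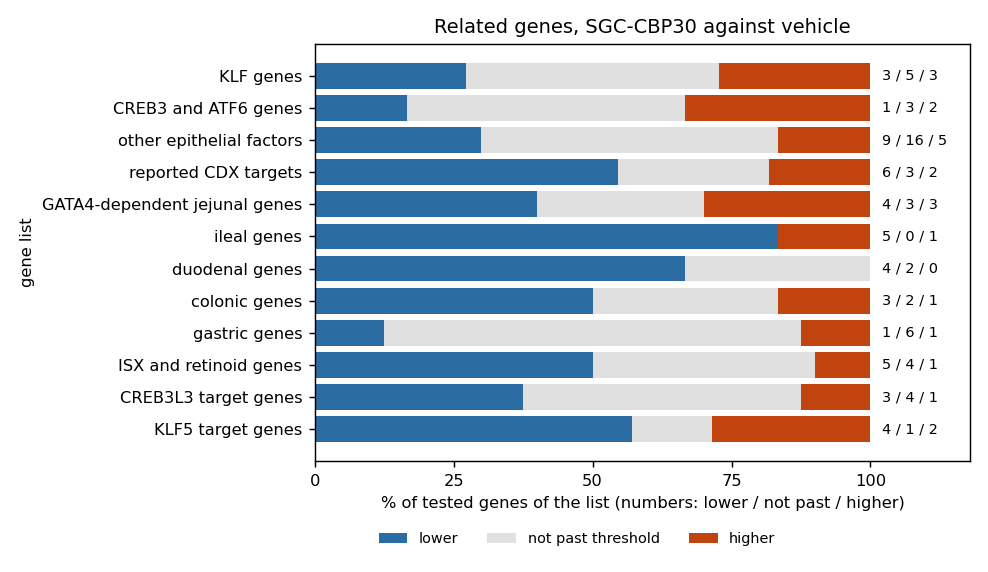
Share of tested genes in each related list (x axis, percent; the 8 factors are left out of the lists) that were lower, not called or higher with SGC-CBP30, with the counts printed at the right. The CDX targets have 6 of 11 lower and the other epithelial factors 9 of 30 lower.

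Markers of epithelial cell types were summed per library to set beside the factors. Their calls stand beside 16.3% lower and 13.6% higher over all tested genes. The 10 enterocyte markers summed to 30580 and 28470 CPM with SGC-CBP30, against 39520 and 39760 CPM with vehicle, with 6 lower, 1 higher and none at 0, and most of that difference lies in Sis. The 6 crypt stem cell markers summed to 540 and 605 CPM with SGC-CBP30 against 717 and 687 CPM with vehicle, with 2 lower and 1 higher. The lower sum rests on Olfm4, named after its values were seen, which differed between groups by at least as much as the mean sum did. Olfm4 stood at 54.5 and 56.6 CPM with SGC-CBP30 against 205 and 179 CPM with vehicle. Lgr5, the receptor gene that marks crypt stem cells, was instead higher by 0.56 on the log2 scale. The 6 Paneth cell markers summed to 3719 and 3380 CPM with SGC-CBP30 against 4277 and 4185 CPM with vehicle, with 2 lower. The 6 goblet cell markers summed to 4367 and 4410 CPM with SGC-CBP30 against 4259 and 4119 CPM with vehicle, with 1 lower and 1 higher, the 6 enteroendocrine markers to 653 and 559 CPM with SGC-CBP30 against 595 and 567 CPM with vehicle, likewise with 1 each way, and the 4 tuft cell markers to 25.4 and 26.1 CPM with SGC-CBP30 against 32.1 and 34.9 CPM with vehicle, with 1 lower. Their part in the changes of the factors was not tested.

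The genes around the 8 loci were mixed. Of 49 tested genes within 200 kb of a factor, the 2 opposite-strand genes included, 11 fell and 8 rose, beside 16.3% lower and 13.6% higher over all genes. Pdx1, a homeobox gene of duodenum and pancreas that lies about 25 kb from Cdx2 and was named after its values were seen, had 13.2 and 11.9 CPM with SGC-CBP30 and 10.6 and 11.3 CPM with vehicle, and did not pass (0.20 ± 0.15, SE; edgeR adjusted p = 0.369).

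For each called factor, the 3 genes with the most similar profile over the 4 libraries were sought among 9149 protein-coding genes of mean log2 CPM at least 3, by the root mean squared difference in log2 CPM centred on each gene's mean. Gata5 was closest to Scin (0.0190), Acot11 (0.0234) and Pigr (0.0238), the gene of the antibody transporter of epithelia. Gata6 was closest to Adh5 (0.00914), Slc44a4 and Bpnt1, Isx to Prps1 (0.00466), Rdh13 and Aurka, and Cdx1 to Hinfp (0.0162), Ifit1bl1 and Spc25. Cdx2 was closest to Rap1gap (0.00790), Erich4 and Pitpna, and Klf5 to Rprd1b (0.00341), Usp3 and Mgat4a. With 4 libraries in 2 groups, this likeness is mostly a shared fold change, and it is given as a description only.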

How the data were processed

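RNA was sequenced from 4 organoid cultures, 2 given SGC-CBP30 and 2 given vehicle. Per the submitters' processing notes the tools were featureCounts 1.5.0-p3, StringTie 1.3.3b and HISAT2 2.0.5, listed without roles, and the build mm9, but 98.5% of 51486 gene identifiers shared with GENCODE M21 have identical GRCm38 coordinates, so GRCm38 is used here. Per the file headers, the authors deposited whole-number counts per gene and library, which were tested here, FPKM values and group means on a normalized signal scale, which were not used in tests, and their own comparison, as log2 fold changes with raw and adjusted p-values, whose test is not given in the sources used here. The table ends within its last line, which was left out, and 27 symbols turned into dates were restored through the identifier.

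Genes were tested with edgeR 4.0.16 in R 4.3.3: filterByExpr, TMM factors (1.02 and 1.03 for SGC-CBP30, 0.978 and 0.972 for vehicle), robust dispersions, the quasi-likelihood F test and Benjamini-Hochberg adjustment over 14684 genes. DESeq2 1.42.0 was an alternative. The SE is the log2 fold change divided by the square root of F. Levels per length are normalized CPM divided by the deposited gene length in kilobases. At these depths the 3 counts taken as a floor equal 0.166 to 0.183 CPM, which covers counting error only. The 8 genes, 16 related lists and 12 marker lists were chosen with earlier results of these data known, and lists were counted, not tested. Some genes stand in several lists, such as Lct, Sis, Apoa4 and Hnf4a, so the lists are not independent of each other. The value of 1 marker gene is not reported here. Genes named from a list are its up to 3 called genes of smallest p, or its gene of lowest p if it has no call, and all tested genes of the CDX, GATA, GATA cofactor, CREB3 and protease lists, and any gene overlapping a factor. Any other gene was picked with its values in view. The 10 alternatives were other scalings, filters, tools, replicates left out and a replicate block.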

Additional observations from a re-analysis of the deposited data

How the results depend on the processing

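Over the 10 alternatives, 4 of the 8 factors (Gata5, Cdx1, Gata6 and Isx) kept their direction and their call, and Gata4 was called in none. Over all genes, 4401 were called, 2004 of them higher and 2397 lower. DESeq2 called 2722 and 1070 higher, and with library totals the split was 2907 higher and 1924 lower, as that scale moves the median log2 fold change of all genes to 0.0826. Leaving out 1 library gave 2921 to 4623 called genes, 1236 to 2144 of them higher and 1685 to 2479 lower, and 4 to 6 called factors; the smallest numbers come from fits without a vehicle library, in which the lone vehicle library is assumed to vary like the others. These fits kept the genes of the full comparison. Some values close to 0 changed sign: Mbtps1 was 0.040 with library totals and -0.12 to 0.056 over the fits that leave out 1 library, Mbtps2 was 0.072 with library totals, 0.011 with no filter, -0.085 to 0.076 without 1 library, and Scarb1 was 0.055 with library totals and -0.14 to 0.092 without 1 library. The cause of these shifts was not tested. With the replicate number as a block, 4703 genes and the same count of 6 factors were called, but same-numbered libraries did not deviate together (correlation -0.024 across genes), so that the numbers are not taken as pairs. At 16433117 to 18087250 counts, depth limits Gata5os, Gkn3 and the genes with a few counts most.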
